A study of Caenorhabditis elegans with 8 samples.

Results

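F48E3.2, ZC116.3, T22B2.1, F55B11.3 and T19D12.4 are 5 protein-coding genes of Caenorhabditis elegans, out of 46739 genes in the deposited count table, that stood higher in worms labelled as RNA interference (RNAi) against isoform C of vab-3 than in control worms. They were chosen by that measured difference, and taken by name. They are the 5 of the 9 genes called higher in that contrast whose symbol in the table is a clone name rather than a gene-class name. The C-labelled against control values below are therefore descriptions without a test, and the open question is how the libraries labelled isoform A compare. All 5 passed the filter on low counts.

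All worms were hermaphrodites of the wild-type strain N2, treated from young adulthood and collected whole on day 5 of adulthood. 2 control libraries, numbered 1 and 3, came from worms on the empty RNAi vector L4440, 3 libraries carry the treatment label RNAi Vab3 isof A/N2 and 3 carry RNAi Vab3 isof C/N2. The labels do not say whether replicates were separate cultures, so p-values measure only the spread between these samples, which may be technical. In RNAi, double-stranded RNA leads to the breakdown of messenger RNA of the same sequence. vab-3 encodes a transcription factor of the Pax6 family.

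Libraries held 30289733 to 43364047 counts. On average vab-3 itself was not lower under either label: its level, in CPM (counts scaled to the same library total), was 2.18 ± 0.0725 (SD, n = 2) in control worms, 4.78 ± 0.646 (n = 3) under the isoform A label and 3.65 ± 1.45 (n = 3) under the isoform C label. C-labelled library 2, at 2.04 CPM, lay below both controls. The counts are per gene, so the isoforms cannot be told apart. Since a lower level of the target was not seen, the names A-labelled and C-labelled are used for the libraries, after their titles alone. On the first principal component of all tested genes, A-labelled libraries 2 and 3 lay at 64.6 and 54.7 and the other 6 libraries between -40.0 and 1.06, so values without those 2 libraries are given where they differ. In RNA from whole worms, fewer cells of a type and less RNA per cell cannot be told apart.

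ZC116.3 is described in the deposited table as a probable cubilin and is named cubn-1 in the reference annotation. In vertebrates, cubilin is a large endocytic receptor of the cell surface, built from EGF and CUB domains. Together with the partners amnionless and megalin it takes up cobalamin bound to intrinsic factor in the gut and filtered proteins in the kidney tubule. The deposited table gives no description for the other 4 genes, and no role is given to them here.

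In build WBcel235, the reference annotation places F48E3.2 on the reverse strand of chromosome X, from 7490394 to 7493120, with 8 exons and a coding sequence for 488 residues. ZC116.3 spans 17421 bases of the forward strand of chromosome V, from 12611329 to 12628749, with 42 exons and 4047 residues. T22B2.1 is at 3926076 to 3929574 of chromosome X, on the forward strand, with 7 exons and 955 residues. F55B11.3 is the shortest of the 5, on the forward strand of chromosome IV, from 14424696 to 14425569, with 3 exons and 231 residues. T19D12.4, on the forward strand of chromosome II from 6631105 to 6637098, has 2 transcripts of 12 exons that encode 1015 and 1028 residues. The genes thus lie on 4 chromosomes and differ widely in size.

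Per length, the 5 genes also covered a wide range of control levels. In the deposited RPKM (counts scaled by gene length and by depth), F55B11.3 stood at 30.8 ± 0.1502 and T19D12.4 at 21.9 ± 0.877 in the controls (mean ± SD, n = 2). F48E3.2 followed at 5.34 ± 0.380, T22B2.1 at 1.99 ± 0.103 and ZC116.3 at 0.293 ± 0.00744 RPKM. Neighbours in this order were separated by more than their spread between the control libraries. Among all 14772 genes tested, the control RPKM of F55B11.3 lay at the 69.4th percentile and that of ZC116.3 at the 8.75th percentile. The order was the same in the A-labelled and C-labelled libraries. In the latter F48E3.2 reached 21.5 ± 1.58 RPKM (n = 3), close to the control level of T19D12.4, while T19D12.4 stood at 35.2 ± 2.20 and F55B11.3 at 46.6 ± 2.11. ZC116.3 remained the lowest of the 5, at 0.979 ± 0.164 RPKM.

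F48E3.2 separated the C-labelled libraries from all others. Its level was 7.59 and 8.67 CPM in control libraries 1 and 3, and 29.7, 34.7 and 34.5 CPM in C-labelled libraries 1, 2 and 3. In A-labelled libraries 1, 2 and 3 it was 13.5, 9.35 and 8.495 CPM. A-labelled library 1 lay above both controls, library 3 lay below control library 3, and the A-labelled and control ranges overlapped. Every C-labelled library held more than 2 times the level of the A-labelled library of its number, at 2.20, 3.71 and 4.06 times.

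ZC116.3, the cubilin-like gene, formed 3 steps without overlap. It measured 3.57 and 3.55 CPM in the controls, 6.91, 8.18 and 7.90 CPM in A-labelled libraries 1, 2 and 3, and 14.01, 11.5 and 10.3 CPM in C-labelled libraries 1, 2 and 3. The A-labelled libraries stood at 1.94, 2.30 and 2.22 times the control mean and the C-labelled libraries at 3.93, 3.23 and 2.90 times. C-labelled library 1 was the highest of all 8.

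T22B2.1 showed the same order with smaller steps. The controls held 5.85 and 5.61 CPM, A-labelled libraries 1, 2 and 3 held 10.6, 9.94 and 11.7 CPM, and C-labelled libraries 1, 2 and 3 held 13.03, 15.5 and 12.96 CPM. All A-labelled libraries lay above both controls and below every C-labelled library. The highest A-labelled and lowest C-labelled library were at 11.7 and 12.96 CPM.

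F55B11.3 was higher under both labels, with no separation between them. The level was 30.3 and 31.5 CPM in the controls, 44.6, 48.7 and 45.03 CPM in A-labelled libraries 1, 2 and 3, and 48.2, 48.4 and 44.6 CPM in C-labelled libraries 1, 2 and 3. The A-labelled and C-labelled ranges overlapped almost fully, and both lay clear of the controls.

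T19D12.4, the member with the most counts, held 70.8 and 69.1 CPM in the controls. It measured 79.9, 94.1 and 94.6 CPM in A-labelled libraries 1, 2 and 3, and 110.1, 123 and 107 CPM in C-labelled libraries 1, 2 and 3. The 3 groups did not overlap, and A-labelled library 1 lay closest to the controls.

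**Figure D1:**
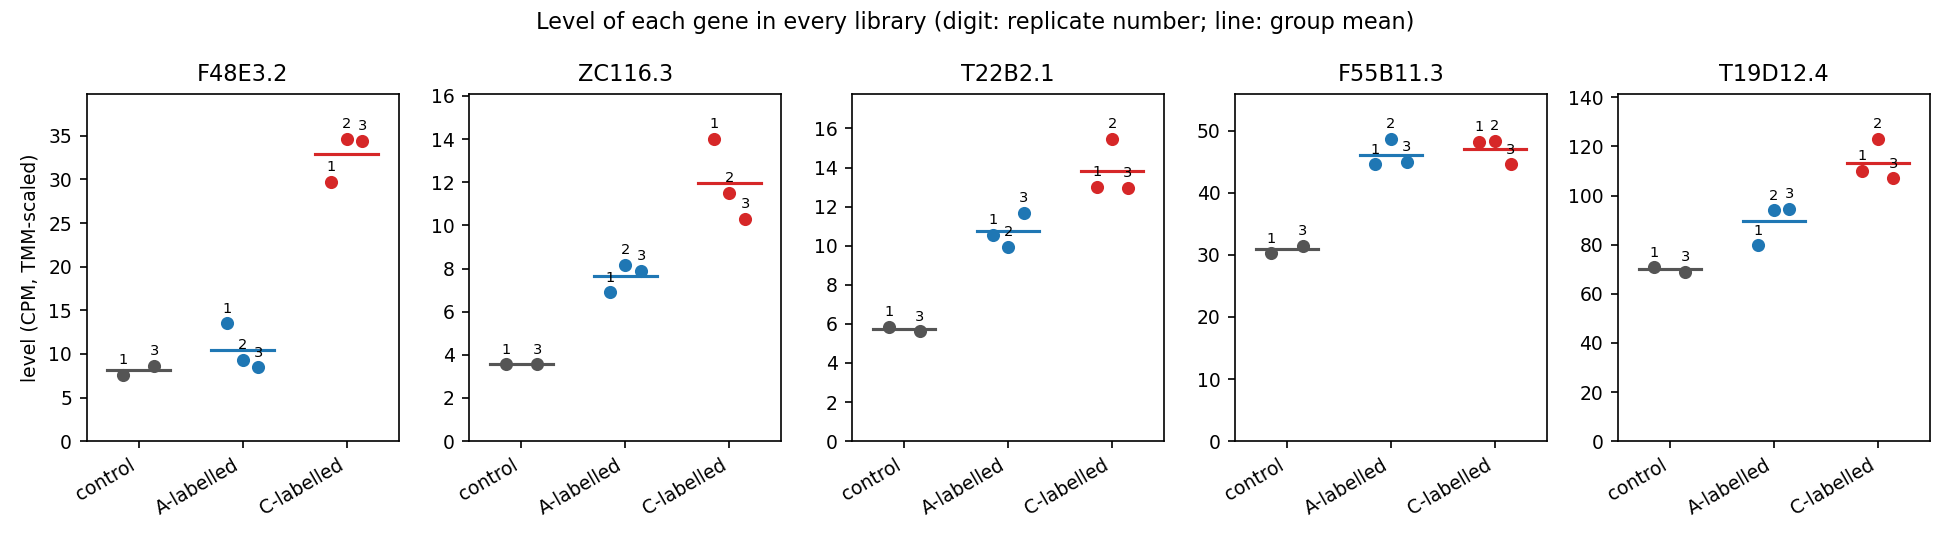
Level of each gene (y axis, TMM-scaled CPM, from 0) in the control, A-labelled and C-labelled libraries (x axis); each point is a library with its replicate number and each line is a group mean. F48E3.2 is high in the 3 C-labelled libraries alone, F55B11.3 has overlapping high values under both labels, and the A-labelled libraries of the other 3 genes lie between the controls and the C-labelled libraries.

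The values that chose the genes were as follows. The fitted log2 difference between C-labelled and control libraries was 2.02 ± 0.20 (SE) for F48E3.2, 1.74 ± 0.17 for ZC116.3, 1.27 ± 0.13 for T22B2.1, 0.70 ± 0.09 for T19D12.4 and 0.61 ± 0.07 for F55B11.3. On the scale of levels these are 4.06, 3.35, 2.41, 1.62 and 1.52 times the control. In that contrast edgeR called 9 of 14772 genes higher, or 0.0609%, and in 12.7% of genes all C-labelled libraries lay above both controls. Since the contrast chose the genes, nothing is read from these shares. How far the wording "raised most" holds depends on the genes they are ranked among. Of 8391 genes with a mean of at least 5 CPM, 3 had a larger log2 difference than F48E3.2 and 5 a larger one than ZC116.3, but 16 exceeded T22B2.1, 82 exceeded T19D12.4 and 114 exceeded F55B11.3. Over all 14772 genes, low ones included, the log2 differences ranked 35th for F48E3.2, 56th for ZC116.3, 181st for T22B2.1, 683rd for T19D12.4 and 843rd for F55B11.3. The genes are thus those whose difference was large against the spread between libraries. Just inside the threshold of 0.05 lay T19D12.4 and cht-3, each with an adjusted p of 0.0418 in the rule's own contrast (edgeR). The first gene outside it was Y62H9A.6, named ule-5 in the reference, with 0.0917.

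Did the A-labelled libraries share the difference from control? F48E3.2 aside, each gene was higher in all 3 A-labelled libraries than in both controls, but no gene passed the test over all genes. The log2 difference between A-labelled and control libraries was 1.10 ± 0.17 (SE) for ZC116.3, with a 95% interval of 0.73 to 1.48 and an unadjusted p of 1.14e-04 (edgeR, adjusted p = 0.121). It was 0.90 ± 0.13 for T22B2.1, interval 0.60 to 1.21 and unadjusted p of 1.00e-04 (edgeR, adjusted p = 0.121). For F55B11.3 it was 0.58 ± 0.07, interval 0.42 to 0.74 and unadjusted p of 2.45e-05 (edgeR, adjusted p = 0.120). T19D12.4 had 0.36 ± 0.09, interval 0.15 to 0.56 and unadjusted p of 0.00335 (edgeR, adjusted p = 0.121).

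F48E3.2 had a similar log2 difference, 0.36 ± 0.19, but with an interval from -0.08 to 0.81 that includes 0 (edgeR, adjusted p = 0.266). The A-labelled levels did not choose the genes, but the control levels did: both contrasts use the same 2 control libraries, so the A-labelled differences are not independent of the choice. Over all 14772 genes, edgeR called 0% between A-labelled and control libraries, 2024 genes were higher (13.7%) and 1816 lower (12.3%) at an unadjusted p below 0.05, and DESeq2 called 1149. All 3 A-labelled libraries lay above both controls in 21.5% of all genes, against 4 of these 5. The median log2 difference was 0.58 over the 5 genes and 0.03 over all genes.

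These calls depended on the setting, among others on the library left out and the tool. Without A-labelled library 1, the adjusted p (edgeR) was 0.0137 for ZC116.3, 0.0187 for T22B2.1, 0.0104 for F55B11.3 and 0.01998 for T19D12.4, in a fit that called 1303 genes. With DESeq2 the same 4 genes passed as well, with adjusted p of 3.26e-05, 3.32e-05, 5.56e-08 and 0.0166, where it called 6.19% of the genes it gave an adjusted p as higher and 3.02% as lower. F55B11.3 also passed with no filter on low counts (edgeR, adjusted p = 0.0195). With A-labelled library 1 as the only A-labelled library, the log2 difference was 0.75 for F48E3.2, 0.97 for ZC116.3, 0.90 for T22B2.1, 0.55 for F55B11.3 and 0.21 for T19D12.4. F48E3.2 was thus higher in that library than in the group, and ZC116.3, F55B11.3 and T19D12.4 were lower. Without A-labelled library 1, the log2 difference of F48E3.2 was 0.13 (edgeR, adjusted p = 0.521).

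**Figure D2:**
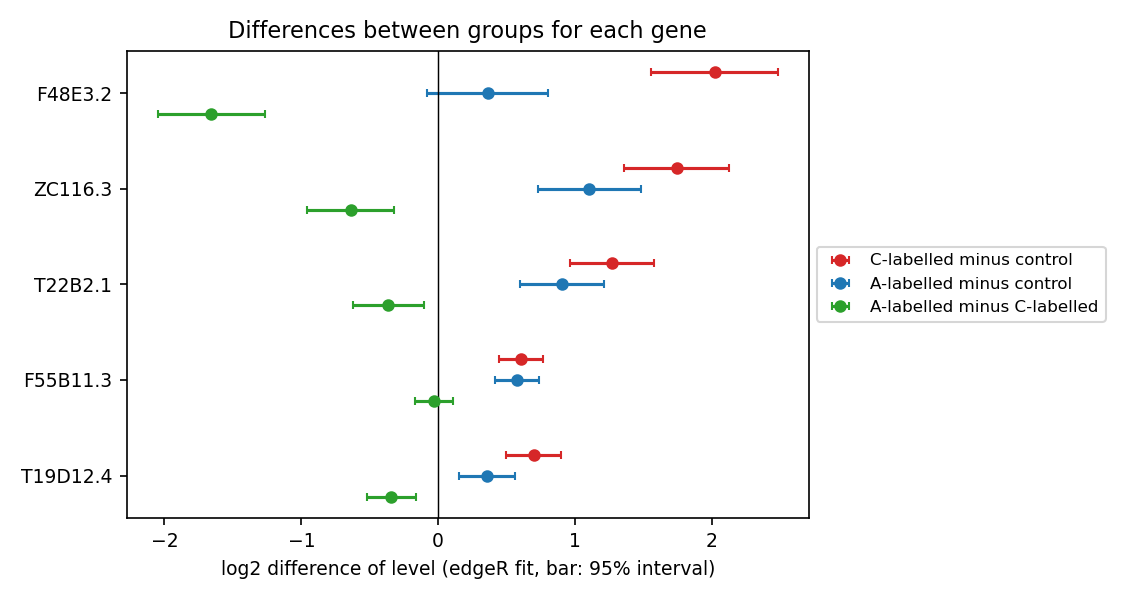
Log2 difference of level (x axis) between C-labelled and control, A-labelled and control, and A-labelled and C-labelled libraries for each gene (y axis), with 95% intervals of the edgeR fit as bars. The A-labelled minus C-labelled difference is -1.66 for F48E3.2 and -0.03 for F55B11.3, with the other 3 genes between them.

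In the direct comparison of A-labelled with C-labelled libraries the genes fell in the same order of size as in C-labelled against control, from F48E3.2 to F55B11.3. F48E3.2 was lower in the A-labelled libraries by a log2 difference of -1.66 ± 0.17 (SE), with a 95% interval of -2.05 to -1.27 (edgeR, adjusted p = 0.0337), lower in 3 of 3 libraries. It was 1 of 6 genes called in this comparison (0.0406% of those tested) and the only one called lower. The C-labelled libraries were part of the choice of genes, which favours high values in them, so this p is not independent of the rule. The call was lost without either control, either of A-labelled libraries 2 and 3, or any C-labelled library (edgeR, adjusted p = 0.0770 to 0.194), while the log2 difference stayed between -1.89 and -1.54 with any single library left out. It was also lost with A-labelled library 1 alone, at -1.28 ± 0.15 (edgeR, adjusted p = 0.0992).

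The other 4 genes did not pass. ZC116.3 had a log2 difference of -0.64 ± 0.14, interval -0.96 to -0.32 (edgeR, adjusted p = 0.137), T22B2.1 of -0.36 ± 0.11, interval -0.63 to -0.10 (edgeR, adjusted p = 0.176), and T19D12.4 of -0.34 ± 0.08, interval -0.52 to -0.16 (edgeR, adjusted p = 0.137). F55B11.3 had -0.03 ± 0.06, and its interval of -0.17 to 0.11 bounds the difference in level to less than that between either RNAi group and the controls. With A-labelled library 1 as the only A-labelled library, the log2 difference was -0.79 for ZC116.3 and -0.50 for T19D12.4. It was -0.39 for T22B2.1 and -0.07 for F55B11.3. Same-numbered A-labelled and C-labelled libraries deviated together, though for number 3 less than an unlike-numbered pair did. With the replicate number as a block, ZC116.3 and T19D12.4 passed at -0.63 and -0.34 (edgeR, adjusted p = 0.0219 and 0.0119). T22B2.1 had an adjusted p of 0.0655 in that fit (edgeR). The blocked fit called 1702 genes in all, against 6 without the block. All C-labelled libraries lay above all A-labelled ones for 4 of the 5 genes, against 11.2% of all genes tested. The steps from control to A-labelled to C-labelled, with no overlap at either, were shown by ZC116.3, T22B2.1 and T19D12.4 and by 52 genes (0.352%) in all. The rule chose for the first and last of these groups.

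The genes varied together across the 8 libraries, as genes chosen for the same contrast must in part. The Pearson correlation of log2 CPM was highest between ZC116.3 and T22B2.1 (r = 0.96 over 8 libraries) and lowest between F48E3.2 and F55B11.3 (r = 0.58). F48E3.2 had the lower values with each of the other 4, from 0.58 to 0.82, and the other 6 pairs lay between 0.84 and 0.96. These values rest on 3 groups of libraries and are descriptions only.

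The tested genes most like each member in pattern differed as well. They were taken from 11515 genes with a mean of at least 1 CPM, by the Pearson correlation of log2 CPM over the same 8 libraries, which takes no account of the size of a change. The genes most like F48E3.2 were fpn-1.1 (r = 0.98), which encodes a ferroportin, F44G3.2 (0.96), named argk-1 in the reference, sqst-1 (0.95), which encodes a sequestosome-related protein, clec-160 (0.95) and saps-1 (0.94). F44G3.2 had mean levels of 38.9, 41.2 and 83.1 CPM in control, A-labelled and C-labelled libraries, and fpn-1.1 had 26.3, 25.98 and 36.12 CPM, so both stood near the control level in the A-labelled libraries. ZC116.3 was most like mcm-4 (0.98), which encodes a replication licensing factor, then cid-1, let-721, Y73C8C.8 and T22B2.1. T22B2.1 was most like Y73C8C.8 (0.98), then vet-2, mcm-4, C05D12.5 and clec-145. T19D12.4 was most like C05D12.5 (0.98), then mcm-4, cid-1, srr-4 and Y73C8C.8. mcm-4 and Y73C8C.8 thus appear for 3 of the genes, with mean levels of 450.0, 479 and 500.4 CPM and of 6.68, 8.90 and 10.5 CPM. F55B11.3 was most like usp-5 (0.98), which encodes a ubiquitin hydrolase, then Y44A6C.2, W02D9.7, rnr-1 and E02D9.1.

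Genes that lie beside or across the 5 were compared, because the libraries do not mark the strand and reads from a shared stretch cannot be assigned. F48E3.2 shares 242 bases of exon with gly-12, a glycosylation-related gene on the opposite strand. gly-12 measured 3.26 ± 0.174 CPM in the controls and 3.34 ± 0.490 CPM in the C-labelled libraries (log2 difference 0.04 ± 0.21), while F48E3.2 was 4.06 times higher. The same-strand neighbour try-14, 603 bases away, measured 339 ± 2.08 and 337 ± 9.07 CPM (log2 difference -0.01 ± 0.06). In the C-labelled libraries both thus stood near their control levels where F48E3.2 did not. In the A-labelled libraries gly-12 measured 4.95 ± 1.02 CPM (log2 difference 0.60 ± 0.21, edgeR, adjusted p = 0.142) and try-14 309 ± 19.8 CPM (-0.13 ± 0.06, edgeR, adjusted p = 0.197). No exon of ZC116.3 is shared with the 2 opposite-strand genes inside its span, cyc-2.2 and F56H9.9, which held 8 and 2 counts over both controls 84 and 4 over the A-labelled and 27 and 1 over the C-labelled libraries. The A-labelled log2 difference of cyc-2.2 was 2.74 ± 1.19 (edgeR, adjusted p = 0.195).

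The gene before ZC116.3 on the same strand, ZC116.1, lies 471 bases away and was low in all groups, at 0.367 ± 0.0499 CPM in the controls, 1.44 ± 0.726 in the A-labelled and 0.841 ± 0.211 in the C-labelled libraries. Its log2 difference in the C-labelled libraries was 1.19 ± 0.51 (edgeR, adjusted p = 0.661) and in the A-labelled libraries 1.95 ± 0.50 (edgeR, adjusted p = 0.121). The neighbours of F55B11.3, F55B11.2 and F55B11.5, had log2 differences of 0.11 ± 0.12 and 0.01 ± 0.17 in the C-labelled libraries and of 0.16 ± 0.12 and 0.03 ± 0.17 in the A-labelled libraries, against 0.61 and 0.58 for F55B11.3 itself. T22B2.1 overlaps no annotated gene. Its neighbours T22B2.2 and adt-3 held 11 and 36 counts over both controls, so their differences are imprecise. T22B2.2, on the same strand as T22B2.1, had log2 differences of 1.00 ± 0.46 in the C-labelled and 0.80 ± 0.47 in the A-labelled libraries. adt-3, also on that strand, had -0.46 ± 0.61 and 1.43 ± 0.58. Neither passed (edgeR, adjusted p = 0.170 to 0.899).

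T19D12.4 shares 58 bases of exon with T19D12.5 and 24 with T19D12.6, both on the opposite strand. T19D12.6 was level across the groups, at 42.1 ± 0.183, 43.4 ± 1.20 and 42.8 ± 1.60 CPM in control, A-labelled and C-labelled libraries. T19D12.5 was low, at 0.344 ± 0.158, 0.713 ± 0.219 and 0.966 ± 0.180 CPM, in the same order of groups as T19D12.4 (log2 difference of C-labelled from control 1.46 ± 0.42, edgeR, adjusted p = 0.446). T19D12.5 held 109 counts over the C-labelled libraries and T19D12.4 held 12661. The part of reads from the shared stretch in the level of T19D12.4 was not tested.

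**Figure D3:**
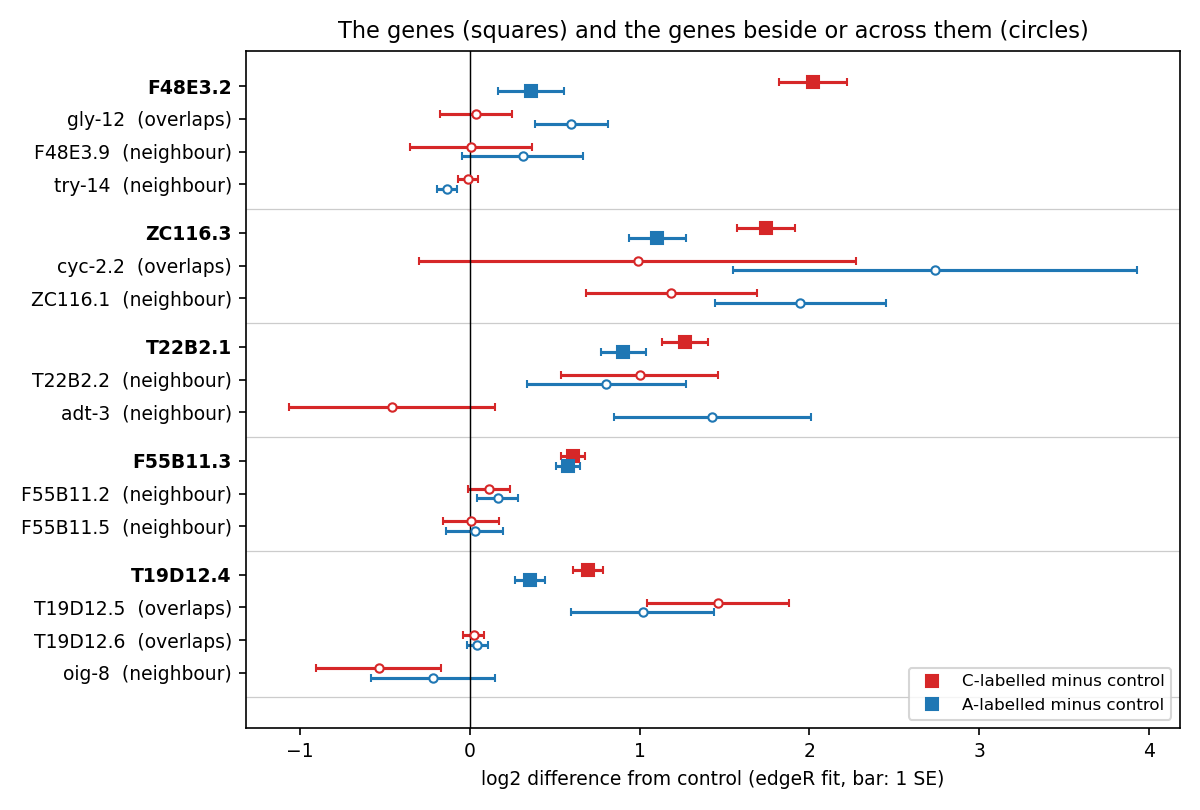
Log2 difference from control (x axis, edgeR fit, bars of 1 SE) of the 5 genes (filled squares) and of the tested genes that overlap or neighbour them (open circles), in C-labelled and A-labelled libraries. gly-12 and try-14 lie at 0.04 and -0.01 in the C-labelled libraries beside 2.02 for F48E3.2, and F55B11.2, F55B11.5 and T19D12.6 also lie near 0.

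Since ZC116.3 is the cubilin-like gene, genes of endocytosis were read beside it. Of 30 listed genes, which encode receptors, coat proteins and membrane traffic factors, 29 were tested and 0 passed in either direction in either comparison with control (edgeR), against 0.0948% of all genes in C-labelled and 0% in A-labelled against control. At an unadjusted p below 0.05, 4 were higher and 8 lower in the A-labelled libraries, against 13.7% and 12.3% of all genes. In the C-labelled libraries 1 was higher and 1 lower, and the share of all genes is not given here. DESeq2 called 0 in the C-labelled libraries, against 1.06% of all genes higher and 0.275% lower. In the A-labelled libraries it called 2, both higher, against 6.19% of all genes higher. The median log2 difference was -0.01 in both, against -0.01 over all genes for C-labelled and 0.03 for A-labelled libraries. The megalin counterpart lrp-1 measured 64.1 ± 13.8 CPM in the controls, 83.7 ± 6.42 in the A-labelled and 64.1 ± 5.70 in the C-labelled libraries (edgeR, adjusted p = 0.142 for A-labelled against control). The yolk receptor gene rme-2 measured 1580 ± 31.8, 1580 ± 83.8 and 1598 ± 46.8 CPM. The clathrin adaptor genes dpy-23 and apa-2 had A-labelled differences of 0.34 ± 0.08 and 0.32 ± 0.08 (edgeR, adjusted p = 0.121 for both) and C-labelled differences of 0.21 ± 0.08 and 0.17 ± 0.08. The adaptor genes apb-1, aps-2 and unc-11 did not share this, at 0.03, -0.03 and -0.04 in the A-labelled libraries. In the C-labelled libraries they had 0.02, -0.09 and -0.08. cup-2, a gene named for coelomocyte uptake defects, was lower, at -0.17 ± 0.05 in the A-labelled and -0.11 ± 0.05 in the C-labelled libraries (edgeR, adjusted p = 0.122 and 0.694).

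Of 21 tested lysosome genes, 2 rose in the C-labelled libraries and 0 in the A-labelled libraries (edgeR), against 0.0609% and 0% of all genes. In the A-labelled libraries 7 were higher at an unadjusted p below 0.05, against 13.7% of all genes, and DESeq2 called 6 higher, against 6.19%. In the C-labelled libraries DESeq2 called 2 higher, against 1.06% of all genes. Both had been listed because earlier results named them. The alpha-mannosidase gene aman-1 measured 5.45 ± 0.903 CPM in the controls, 15.1 ± 1.25 in the A-labelled and 17.2 ± 1.57 in the C-labelled libraries (edgeR, adjusted p = 0.0799 and 0.0135 against control). The protease gene tag-196 measured 33.5 ± 0.504, 45.6 ± 2.61 and 50.1 ± 1.69 CPM (edgeR, adjusted p = 0.121 and 0.0250). The median log2 difference of the list was 0.20 in the C-labelled and 0.21 in the A-labelled libraries.

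Several marker lists, early embryo and coelomocyte genes among them, were above both controls in all 6 RNAi-labelled libraries. The summed level of 8 early embryo genes was 40.4 to 44.6 CPM in the controls, 70.5 to 76.3 CPM in the A-labelled and 76.7 to 83.1 CPM in the C-labelled libraries, with 8 of 8 higher under each label and 0 past the threshold (edgeR). Of all genes tested, 54.5% were higher in the A-labelled and 46.5% in the C-labelled libraries than in the controls. DESeq2 called 3 of the 8 higher in the A-labelled and 4 in the C-labelled libraries, against 6.19% and 1.06% of all genes. In edgeR, 4 and 6 were higher at an unadjusted p below 0.05, against 13.7% of all genes for A-labelled libraries. The share for C-labelled libraries is not given here. The median log2 difference of the 8 genes was 0.59 and 0.92. None of the 10 listed was at 0 in every library, but end-1 and sdz-23 were too low to test, at 51 and 7 counts over all libraries. Among them, pes-10 measured 3.997 ± 1.06, 8.71 ± 1.04 and 8.72 ± 1.19 CPM in control, A-labelled and C-labelled libraries. The 4 coelomocyte genes are markers of the scavenger cells of the body cavity. DESeq2 called 1 of them higher under each label, against 6.19% and 1.06% of all genes, and edgeR called 0. Their median log2 differences were 0.42 and 0.32. They summed to 4.91 to 5.64, 7.14 to 7.59 and 7.63 to 8.27 CPM in control, A-labelled and C-labelled libraries. lgc-26 took the largest part in that, at 1.01 ± 0.121, 2.08 ± 0.229 and 2.60 ± 0.331 CPM (edgeR, adjusted p = 0.121 for A-labelled against control), while cup-4 measured 2.64 ± 0.444, 3.16 ± 0.302 and 3.40 ± 0.527 CPM and unc-122 1.09 ± 0.131, 1.47 ± 0.265 and 1.32 ± 0.0329 CPM. By mean log2 CPM relative to the controls, the lysosome and neuron lists were also above both controls in all 6 RNAi-labelled libraries. Their values were 0.14 to 0.43 and 0.18 to 0.59. By summed level the neuron list was too, but the lysosome list overlapped the controls. It summed to 3484 to 4390 CPM in control, 4127 to 5360 in A-labelled and 4020 to 4988 in C-labelled libraries. The gonad sheath and spermatheca genes were above both controls by summed level alone. By mean log2 CPM, A-labelled and C-labelled libraries 1 lay at 0.04 and 0.02, below control library 3 at 0.05. The part of any of these lists in the levels of the 5 genes was not tested.

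Several lists set A-labelled libraries 2 and 3 apart and moved otherwise. Relative to the controls, the mean log2 CPM of hypodermis genes reached 0.29, 2.18 and 1.98 in the 3 A-labelled libraries in order of number, and -0.87, 0.18 and -0.36 in C-labelled libraries 1, 2 and 3. Body wall muscle lay at 0.62, 1.51 and 0.99, then at 0.21, 0.37 and -0.08. The pharynx list lay at 0.73, 2.11 and 1.24, then at 0.02, 0.47 and 0.44. Sperm genes lay at -0.27, 1.82 and 2.74, then at -0.36, 1.39 and 0.43. Smaller differences were seen for the intestine, at 0.05, 0.58 and 0.37, then at -0.10, 0.23 and 0.08. Gonad sheath and spermatheca genes lay at 0.04, 0.47 and 0.38, then at 0.02, 0.21 and 0.16. On the same scale, ZC116.3 lay at 0.94, 1.19 and 1.14 in the A-labelled libraries, T22B2.1 at 0.88, 0.79 and 1.02, and F55B11.3 at 0.53, 0.66 and 0.54. F48E3.2 ran the other way, at 0.73, 0.20 and 0.07. T19D12.4 lay at 0.19, 0.43 and 0.44. ZC116.3, F55B11.3 and T19D12.4 were thus lowest in A-labelled library 1, as the tissue lists were, F55B11.3 by little. The part of these tissues in the levels of the genes was not tested.

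The remaining lists were read for the same purpose. Summed levels in control, A-labelled and C-labelled libraries were 385 to 425, 437 to 666 and 376 to 466 CPM for the intestine, 285 to 298, 308 to 350.1 and 306 to 336 CPM for neurons, and 4.83 to 5.01, 3.39 to 30.2 and 3.58 to 12.2 CPM for sperm. Germline and oocyte genes summed to 9147 to 9420, 8527 to 8776 and 8860 to 9079 CPM, and gonad sheath and spermatheca genes to 138 to 139, 140.4 to 149 and 145 to 151 CPM. No gene of these lists, or of the hypodermis, muscle and pharynx lists, passed the threshold in either comparison with control (edgeR). With DESeq2, 9 of 10 muscle, 6 of 10 hypodermis and 4 of 10 pharynx genes were called higher in A-labelled against control, against 6.19% of all genes, and 0 of each in C-labelled against control. DESeq2 also called 4 of 12 germline and oocyte genes and 1 hypodermis gene lower in A-labelled against control, where it called 3.02% of all genes lower. In C-labelled against control it called 0 of these lower, against 0.275% of all genes.

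**Figure D4:**
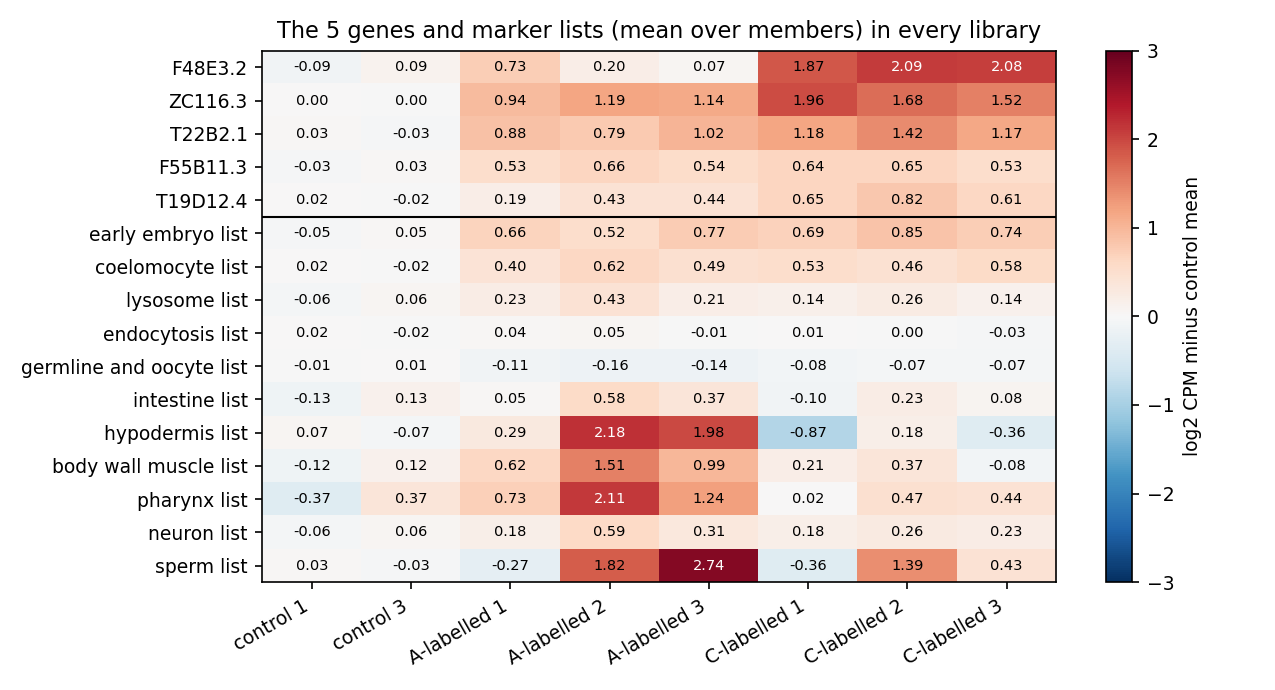
Log2 CPM minus the control mean (colour and printed value) of the 5 genes and of 11 marker lists (rows, mean over the tested members of a list) in each of the 8 libraries (columns). The early embryo and coelomocyte lists are above control in all 6 RNAi-labelled libraries, from 0.40 to 0.85. The lysosome and neuron lists are too, from 0.14 to 0.59. The hypodermis, muscle, pharynx, sperm, intestine and neuron lists are highest in A-labelled libraries 2 and 3.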

How the data were processed

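The submitters' processing notes name build WBcel235, featureCounts 1.5.0, TopHat2 2.1.0 and bcl2fastq 1.8.4, with no roles or order. Annotation release, strand setting and multi-mapping setting: not given in the sources used here. The authors deposited whole-number counts for 46739 genes. The deposited RPKM values rest on 1 length per gene, 1009 bases for F55B11.3 against 742 bases of exon in the Ensembl annotation used here, so their gene models differ; RPKM entered no test.

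edgeR 4.0.16 in R 4.3.3 was run with its expression filter by group (14772 genes kept, 99.9 to 100.0% of counts), TMM scaling (factors 0.957 to 1.02) and a robust quasi-likelihood F test in 1 model of 3 groups over 8 libraries, two-sided, adjusted by Benjamini-Hochberg over all tested genes at 0.05. CPM use the scaled library sizes, and log2 CPM a prior count of 2. A standard error is the log2 difference over the square root of F. The fit was tested on simulated counts. DESeq2 1.42.0 was an alternative, beside other size factors, no filter, each library left out, a replicate block and only the groups compared. Counts limit the precision: members had 107 to 5253 per library.

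Groups and numbers come from sample titles. Within groups every pair of libraries differed beyond sampling noise (lowest chi-square over its degrees of freedom 17.6). Same-numbered A-labelled and C-labelled libraries deviated from their group means together across genes (r = 0.61, 0.43 and 0.22 for numbers 1, 2 and 3). A-labelled library 3 and C-labelled library 2, of unlike number, had r = 0.30, above that of number 3. The remaining unlike-numbered pairs of these groups lay from -0.55 to -0.06. Deviations from a group mean balance within the group, so the unlike-numbered values are not independent of the same-numbered ones. The block thus pairs libraries on the data alone, least clearly for number 3, and no label gives a shared batch. The controls share only numbers 1 and 3, which cannot settle a pairing. The members, lists and tests were chosen with earlier results of these data known. Named genes are the members, vab-3, the nearest and overlapping genes of each member, the 5 most like it in pattern, the other genes called higher in C-labelled libraries, the 5 next to the threshold, list genes past it, and otherwise the 3 of smallest p of the coelomocyte, endocytosis and lysosome lists. lrp-1, rme-2, apb-1, aps-2, unc-11, pes-10, end-1 and sdz-23 were named after their values were seen.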

Additional observations from a re-analysis of the deposited data

Results flagged for a closer look

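The difference of F48E3.2 from control differed between the labels, by the test of A-labelled against C-labelled libraries in the unblocked edgeR model. Its level was 10.4 ± 2.67 CPM (SD, n = 3) in the A-labelled and 33.0 ± 2.78 CPM (n = 3) in the C-labelled libraries, against 8.13 ± 0.757 CPM (n = 2) in the controls, and the A-labelled minus C-labelled log2 difference was -1.66 (edgeR, adjusted p = 0.0337). The gene was chosen for high values in the C-labelled libraries, so this test is not independent of the choice. The call was lost in 9 of 14 alternatives. For the other 4 genes a p that missed the threshold does not show that the labels gave the same level. ZC116.3 and T19D12.4 passed the same comparison with the replicate block (edgeR, adjusted p = 0.0219 and 0.0119) and with DESeq2 (adjusted p = 0.00411 and 0.00300). Of 14772 genes tested, the blocked fit called 1702 and DESeq2 called 663. ZC116.3 and T19D12.4 were also chosen for high values in the C-labelled libraries, so these tests are not independent of the choice either.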

How the results depend on the processing

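All 70 C-labelled minus control values of the 5 genes under the alternatives stayed above 0 and within 1 SD of the C-labelled libraries of the reported value. All 14 A-labelled minus control values of each gene also stayed above 0, and all 14 A-labelled minus C-labelled values below 0. Calls were less stable. For A-labelled against control, the log2 difference with DESeq2, with no filter and with a replicate block was 0.57, 0.58 and 0.55 for F55B11.3. DESeq2 gave 1.09 for ZC116.3, 0.90 for T22B2.1 and 0.35 for T19D12.4, and the block 1.10, 0.89 and 0.30, all of these past the threshold. With single libraries left out, the ranges were 0.13 to 0.49 for F48E3.2, 1.07 to 1.17 for ZC116.3, 0.83 to 0.97 for T22B2.1, 0.55 to 0.60 for F55B11.3 and 0.31 to 0.43 for T19D12.4. For A-labelled against C-labelled, ZC116.3 passed with DESeq2 (-0.66) and the block (-0.63), and T19D12.4 likewise (-0.36 and -0.34). F48E3.2 did not pass with the 2 groups alone (-1.65; edgeR, adjusted p = 0.0983; over all alternatives from 6.69e-17 with DESeq2 to 0.194) or without A-labelled libraries 2 and 3 (-1.28). Ranges with single libraries left out were -1.89 to -1.54 for F48E3.2, -0.74 to -0.52 for ZC116.3, -0.45 to -0.30 for T22B2.1, -0.07 to -0.01 for F55B11.3 and -0.40 to -0.26 for T19D12.4.

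The number of genes called for A-labelled against control was 0, and 1149 with DESeq2, 8 with no filter, 546 with the block and 0 to 1303 with single libraries left out, the highest without A-labelled library 1. For C-labelled against control it was 14, and 155 with DESeq2, 23 with the 2 groups alone, 102 with the block, 25 without A-labelled libraries 2 and 3, and 1 to 15 with single libraries left out: 2 and 1 without control libraries 1 and 3, and 3, 3 and 6 without C-labelled libraries 1, 2 and 3. For A-labelled against C-labelled it was 6, and 663 with DESeq2, 12 with no filter, 1 with the 2 groups alone, 1702 with the block and 1 to 748 with single libraries left out, 748 without A-labelled library 1 and 1 without any other. The cause was not tested. Where 1 library of a group was left, it was assumed to vary like the others. Of the genes here, ZC116.3 has the fewest counts, 107 to 491 per library.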

Other observations

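4 further genes were called higher in the C-labelled libraries, and all had A-labelled libraries above both controls, against 21.5% of all genes. Beside aman-1 and tag-196, they are vet-2, an early embryonic transcript, at 29.2, 47.9 and 52.8 CPM (means of control, A-labelled and C-labelled libraries), and the chitinase gene cht-3, at 407, 496 and 552 CPM. The 5 genes just outside the threshold in that contrast were Y62H9A.6, vet-1, Y44A6C.2, lgc-26 and fpn-1.1. The first 4 of them had A-labelled minus control log2 differences of 0.35, 0.55, 0.84 and 1.03 and all A-labelled libraries above both controls. The genes on either side of the threshold were picked by C-labelled against the same control libraries, so their A-labelled differences are not independent of that choice. fpn-1.1, the gene most like F48E3.2 in pattern, had -0.02 ± 0.08 (SE; edgeR, adjusted p = 0.910) beside 0.46 ± 0.08 in the C-labelled libraries.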
